A study of Mus musculus with 20 samples.

Results

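Chrna2, Bhlhb9, Serinc2, Nrp2 and Acsf3 are 5 genes of unrelated function that were measured by RNA sequencing of bulk mouse liver, and they make up 5 of the 53599 gene rows in the deposited count tables. They were chosen by their measured response: each responded less to perfluorooctanoic acid (PFOA) in mice without the nuclear receptor PPARa (KO) than in mice with human PPARa (hPPARa). Their responses to PFOA within either genotype, and the difference between those responses, are therefore given below as a description with no test. All 5 had counts and passed the filter on low counts in every fit.

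PPARa is a nuclear receptor of the hepatocyte that is activated by fatty acids and by fatty-acid-like chemicals, among them PFOA, a long-lived fluorinated surfactant. It pairs with RXR on DNA, where the pair binds a direct repeat of the AGGTCA motif with a single base between the copies, and its best-known liver targets are enzymes of fatty acid oxidation. Chrna2 encodes the alpha 2 subunit of nicotinic acetylcholine receptors, ion channels that acetylcholine opens, known mainly from neurons. Nrp2 encodes neuropilin 2, a co-receptor for class 3 semaphorins and vascular endothelial growth factors that is known from lymphatic and venous endothelium. Serinc2 encodes a serine incorporator, a member of a family of membrane-spanning proteins named for building serine into membrane lipids. Bhlhb9, also called Gprasp3, encodes a member of the family of sorting proteins that associate with G-protein-coupled receptors, related to the Armcx proteins. Acsf3 encodes the mitochondrial synthetase that makes malonyl-CoA from malonate, the building block of mitochondrial fatty acid synthesis.

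The study exposed mice from weaning, for 6 to 7 weeks, to PFOA in drinking water (given in the labels as 8 µm, read here as micromolar) or to vehicle water, both with 0.5% sucrose. The libraries fell into 8 groups: KO male PFOA (3 libraries), KO female PFOA (3), KO male vehicle (3), KO female vehicle (1), hPPARa male PFOA (3), hPPARa female PFOA (2), hPPARa male vehicle (2) and hPPARa female vehicle (3). Every group ate the same custom diet with 51.8% of its energy from carbohydrate, 33.5% from fat and 14.7% from protein. The deleted part of Ppara, the promoter of the human gene, the presence of the mouse gene in hPPARa mice, the strain and an age beyond the time since weaning were not stated in the labels. Nor do they say that each library came from its own mouse, so p-values reflect only how these samples spread, which may be technical.

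Library totals ran from 14973673 to 17953860 counts. Summed hepatocyte markers lay between 61698 and 198480 CPM, where CPM is a count scaled to the library total; all 6 of these markers were tested, and the label is bulk liver. With PFOA, 2 of the 6 were called lower in KO livers (median log2 fold change −0.38), with sums of 61698 to 81714 CPM, against 83782 to 100200 CPM with vehicle. In hPPARa livers 5 of the 6 were called lower (median −0.82), with sums of 80369 to 115100 CPM with PFOA, against 105740 to 198480 CPM with vehicle. Their part in the responses of the 5 genes was not tested. Mouse Ppara had 8.42 to 25.1 CPM in KO libraries, against 16.9 to 39.6 CPM in hPPARa libraries; since the deleted part is not given, these values do not check the labels. In 3 KO libraries transcripts of the other sex were present at low levels. Male-specific Ddx3y had 4.06 CPM in KO female PFOA replicate 2 and 1.86 CPM in KO female vehicle replicate 1. Female-specific Xist had 30.8 CPM in KO male PFOA replicate 2. For scale, the highest KO PFOA libraries had 498 CPM of Xist and 47.9 CPM of Ddx3y. Traces of the same transcript lower than in the 3 libraries were not limited to KO livers. The median hPPARa PFOA library had 4.40 CPM of Xist, with 3 of 5 libraries male. The median hPPARa vehicle library had 0.415 CPM of Ddx3y, with 3 of 5 libraries female. The responses of the 5 genes in KO livers are therefore also given without the 3 KO libraries, which leaves no KO female on vehicle. For other named genes this is given where it ended a call. Counts over gene lists and markers were not redone without the 3 libraries. Over all genes, calls for PFOA in KO livers went from 2113 to 630 without them. KO female vehicle replicate 1, the only library of its group, also stood apart in bile duct markers: summed cholangiocyte markers reached 186 CPM there, and 50.5 to 67.2 CPM in the KO male vehicle libraries. Summed neutrophil markers were 89.9 to 326 CPM in KO PFOA libraries, against 0.757 to 3.38 CPM in KO vehicle libraries. Ly6g was at 0 in all KO PFOA libraries, and 1 of 3 tested neutrophil markers was called higher in KO livers (median 0.30). In hPPARa livers these sums were 5.02 to 10.7 CPM with PFOA, against 2.15 to 2.56 CPM with vehicle. There too 1 of 3 was called higher (median 0.65). In bulk tissue, fewer cells of a type and less RNA per cell cannot be told apart.

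The stretches before the start sites of the genes are shown because all 5 were chosen for the same response and could be read for the AGGTCA motif of PPARa. Entries were found for 4 of the 5 genes (Bhlhb9, Serinc2, Nrp2 and Acsf3; Chrna2 is named only). Each sequence below runs from 250 bases before a transcription start to 50 bases after it, 5′ to 3′ on the strand of the gene, from RefSeq on build GRCm38.p6, and the capitals mark the 50 bases from the start site on. The windows are chrX:135885601-135885900 on the plus strand for Bhlhb9, chr4:130275537-130275836 on the minus strand for the first of the 3 starts of Serinc2, chr1:62703067-62703366 on the plus strand for Nrp2 and chr8:122775236-122775535 on the plus strand for Acsf3.
Bhlhb9: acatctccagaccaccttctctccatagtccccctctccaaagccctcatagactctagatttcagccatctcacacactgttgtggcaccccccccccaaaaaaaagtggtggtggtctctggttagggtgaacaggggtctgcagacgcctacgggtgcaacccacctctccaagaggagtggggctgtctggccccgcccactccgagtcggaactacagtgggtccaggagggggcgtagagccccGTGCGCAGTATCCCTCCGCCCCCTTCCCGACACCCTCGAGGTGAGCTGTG
Serinc2: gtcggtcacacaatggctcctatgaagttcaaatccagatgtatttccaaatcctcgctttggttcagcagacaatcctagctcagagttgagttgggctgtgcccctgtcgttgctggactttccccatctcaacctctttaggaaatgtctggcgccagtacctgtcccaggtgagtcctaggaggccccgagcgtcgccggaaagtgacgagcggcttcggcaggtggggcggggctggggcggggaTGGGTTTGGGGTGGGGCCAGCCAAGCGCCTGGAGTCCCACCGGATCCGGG
Nrp2: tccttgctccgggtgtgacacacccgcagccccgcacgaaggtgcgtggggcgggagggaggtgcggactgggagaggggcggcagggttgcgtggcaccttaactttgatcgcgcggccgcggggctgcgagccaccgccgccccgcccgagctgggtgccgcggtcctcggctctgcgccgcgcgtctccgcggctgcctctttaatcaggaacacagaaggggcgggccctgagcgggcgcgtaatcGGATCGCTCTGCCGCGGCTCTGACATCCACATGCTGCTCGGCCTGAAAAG
Acsf3: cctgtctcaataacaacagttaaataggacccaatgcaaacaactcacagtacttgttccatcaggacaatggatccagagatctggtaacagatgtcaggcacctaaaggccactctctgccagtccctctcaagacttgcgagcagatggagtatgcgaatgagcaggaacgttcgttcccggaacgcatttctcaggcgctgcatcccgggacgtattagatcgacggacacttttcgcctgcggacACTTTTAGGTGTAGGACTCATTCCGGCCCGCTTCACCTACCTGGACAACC
Neither AGGTCA nor the direct repeat AGGTCANAGGTCA, the looser AGGNCANAGGNCA or the TATA box TATAAA stood in any of the 6 windows of these 4 genes, counting both strands and all 3 starts of Serinc2; AGGTCANAGGTCA contains AGGTCA and is a case of AGGNCANAGGNCA. Over all 32851 promoter windows of the same length, 16.3% held AGGTCA, 0.0396% held AGGTCANAGGTCA, 0.381% held AGGNCANAGGNCA and 13.6% held TATAAA. These letters being absent from 300 bases says nothing about binding elsewhere. The windows differed in base composition: G and C made up 70.7% of the Nrp2 window, with 37 CpG pairs, and 51.3% of the Acsf3 window, with 15.

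CPM values use normalized library totals. They are not scaled to gene length and are compared within a gene only. Differences are log2 fold changes from edgeR with their standard error (SE). Every PFOA library of hPPARa mice was above every vehicle library of hPPARa mice for Chrna2, Bhlhb9, Serinc2 and Acsf3. This pattern was seen in 8.64% of the 14400 genes tested in that genotype. For Nrp2 it held only within each sex, a looser pattern whose share over all genes was not computed. In KO livers, with 1 female vehicle library, no gene of the 5 showed such a gap upward in both sexes. The share of all genes with that pattern in KO livers was not computed. The 5 were chosen for a smaller response in KO livers, so nothing is read from this contrast. For other gaps between libraries given below, shares over all genes were not computed either.

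**Figure D1:**
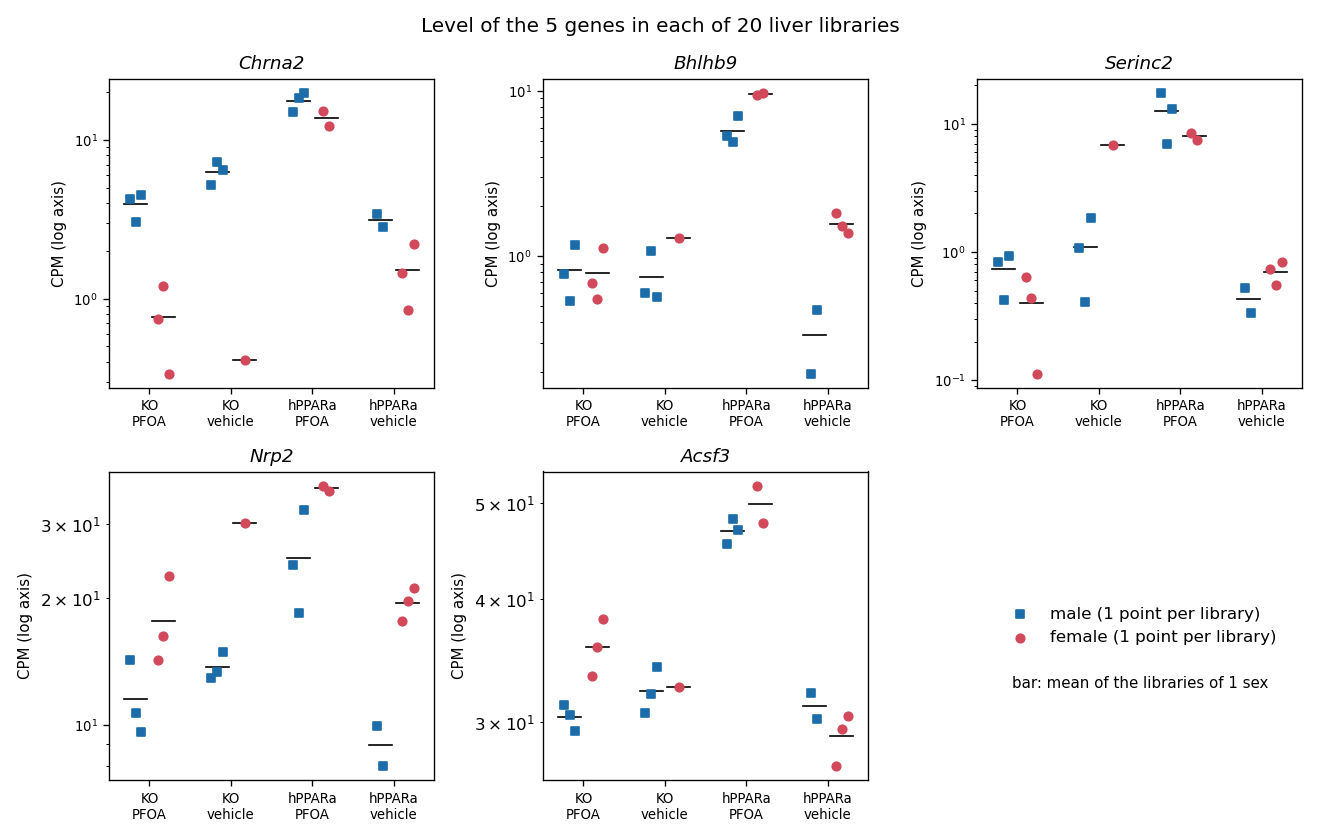
Level of each gene in CPM (log axis, 1 scale per gene) in the 20 libraries, by genotype and exposure; squares are male libraries, circles are female libraries and bars are the mean of a sex within a group. The hPPARa PFOA libraries stand highest for Chrna2, Bhlhb9, Serinc2 and Acsf3, and the single KO female vehicle library stands well above the other KO libraries for Serinc2, at 6.82 CPM.

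Chrna2, the nicotinic receptor subunit, was higher with PFOA in hPPARa livers of both sexes. In KO males it had 4.26, 3.05 and 4.50 CPM with PFOA, against 5.21, 7.23 and 6.50 CPM with vehicle. In KO females it had 0.746, 1.21 and 0.337 CPM with PFOA, against 0.413 CPM with vehicle. All KO male PFOA libraries were thus below all KO male vehicle libraries, while the KO female groups overlapped. In hPPARa males it had 15.03, 18.5 and 19.8 CPM with PFOA, against 3.44 and 2.82 CPM with vehicle. In hPPARa females it had 15.3 and 12.2 CPM with PFOA, against 1.46, 0.852 and 2.21 CPM with vehicle. The hPPARa groups did not overlap in either sex, and all 5 hPPARa PFOA libraries were above all 10 KO libraries. The log2 fold change with PFOA was −0.39 ± 0.31 (SE) in KO livers and 2.83 ± 0.21 in hPPARa livers, and their difference, KO minus hPPARa, was −3.26 ± 0.39. In KO livers the sexes differed in sign, with −0.67 ± 0.29 in males and 0.86 ± 0.64 in females, and with equal weight for the sexes the KO value was 0.095. Without the 3 KO libraries named above the KO value was −0.53 and the difference −3.36.

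Bhlhb9 was low in all livers but those of hPPARa mice on PFOA. KO males had 0.784, 0.538 and 1.17 CPM with PFOA, against 0.601, 1.08 and 0.568 CPM with vehicle. KO females had 0.693, 0.549 and 1.12 CPM with PFOA, against 1.29 CPM with vehicle. These 10 libraries spanned 0.538 to 1.29 CPM, and the male groups overlapped. In hPPARa males Bhlhb9 had 5.33, 4.89 and 7.05 CPM with PFOA, against 0.195 and 0.470 CPM with vehicle. In hPPARa females it had 9.50 and 9.71 CPM with PFOA, against 1.83, 1.52 and 1.38 CPM with vehicle. The 4 hPPARa groups were each apart from the others, with males below females on either water. The hPPARa male vehicle libraries held only 10 counts of Bhlhb9 between them, so the male log2 fold change of 4.09 ± 0.36 rests on few reads; that of hPPARa females was 2.59 ± 0.25. Over both sexes the log2 fold change was −0.18 ± 0.36 in KO livers and 3.07 ± 0.27 in hPPARa livers, a difference of −3.29 ± 0.45. Without the 3 KO libraries named above the KO value was 0.38 and the difference −2.71.

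The counts of Bhlhb9 carry a doubt of their own. In GENCODE M21, an annotation of GRCm38, 412 of its 4800 exonic bases are shared with the adjoining Gprasp1 and Gprasp2 on the same strand, and the labels do not say how shared bases were counted. Gprasp1 had log2 fold changes of −0.03 ± 0.15 in KO livers (adjusted p = 0.922) and 0.33 ± 0.14 in hPPARa livers (adjusted p = 0.114), and Gprasp2 had at most 0.723 CPM in any library. The other 4 genes shared no exonic base with another gene in that annotation.

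Serinc2, the serine incorporator, had the widest response of the 5 in hPPARa livers. KO males had 0.840, 0.419 and 0.935 CPM with PFOA, against 1.07, 0.405 and 1.83 CPM with vehicle. KO females had 0.639, 0.439 and 0.112 CPM with PFOA, against 6.82 CPM in the single vehicle library. That library held 132 counts of Serinc2, and the other 9 KO libraries held 2 to 29. In hPPARa males Serinc2 had 17.4, 7.00 and 13.1 CPM with PFOA, against 0.520 and 0.335 CPM with vehicle. In hPPARa females it had 8.43 and 7.497 CPM with PFOA, against 0.731, 0.547 and 0.830 CPM with vehicle. The hPPARa exposure groups were far apart in both sexes, and the male PFOA libraries spread over more than the female ones. The log2 fold change was −2.09 ± 0.69 in KO livers and 4.05 ± 0.33 in hPPARa livers, a difference of −6.22 ± 0.81. The KO value rests on KO female vehicle replicate 1: without it the log2 fold change in KO livers was −0.59 and the difference between genotypes −4.65, and without all 3 libraries with transcripts of the other sex they were −0.31 and −4.38. All 5 of 5 cholangiocyte markers were lower with PFOA in KO livers, with sums of 15.7 to 46.4 CPM in PFOA libraries, against 50.5 to 186 CPM in vehicle libraries, and their part in the KO values of Serinc2 and Nrp2 was not tested.

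Nrp2, the semaphorin and growth factor co-receptor, followed both exposure and sex. KO males had 14.2, 10.6 and 9.64 CPM with PFOA, against 13.0, 13.4 and 14.9 CPM with vehicle. KO females had 14.2, 16.3 and 22.5 CPM with PFOA, against 30.2 CPM with vehicle. The KO male groups overlapped, and the single KO female vehicle library was again the highest of the KO libraries. In hPPARa males Nrp2 had 23.9, 18.5 and 32.3 CPM with PFOA, against 9.94 and 7.98 CPM with vehicle. In hPPARa females it had 37.0 and 36.0 CPM with PFOA, against 17.7, 19.7 and 21.2 CPM with vehicle. Within each sex the hPPARa exposure groups did not overlap, but the lowest male PFOA library lay below the higher female vehicle libraries. The log2 fold change was −0.45 ± 0.16 in KO livers and 1.17 ± 0.16 in hPPARa livers, a difference of −1.62 ± 0.24; without the 3 KO libraries the KO value was −0.20 and the difference −1.37.

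Endothelial markers were counted beside Nrp2. With PFOA, 5 of 8 sinusoidal and vascular endothelial markers were called higher in hPPARa livers and 0 lower, with sums of 273 to 363 CPM in PFOA libraries, against 265 to 343 CPM in vehicle libraries. In KO livers 2 of 8 were called higher and 0 lower, with sums of 231 to 286 CPM in PFOA libraries, against 201 to 297 CPM in vehicle libraries. Of the 4 lymphatic markers, 3 were tested in either genotype. In KO livers 1 was called lower, with sums of 147 to 219 CPM in PFOA libraries, against 165 to 205 CPM in vehicle libraries, and in hPPARa livers 1 was called lower, with sums of 135 to 178 CPM in PFOA libraries, against 165 to 188 CPM in vehicle libraries. The part of these cells in the Nrp2 values was not tested.

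Acsf3, the malonyl-CoA synthetase, had the smallest response and the tightest values. KO males had 31.2, 30.5 and 29.4 CPM with PFOA, against 30.6, 32.0 and 34.1 CPM with vehicle. KO females had 33.4, 35.7 and 38.1 CPM with PFOA, against 32.5 CPM with vehicle. The KO male groups overlapped, and the KO female PFOA libraries were all slightly above the single vehicle library. In hPPARa males Acsf3 had 45.4, 48.2 and 46.9 CPM with PFOA, against 32.1 and 30.2 CPM with vehicle. In hPPARa females it had 52.1 and 47.8 CPM with PFOA, against 27.1, 29.5 and 30.4 CPM with vehicle. All 5 hPPARa PFOA libraries were above all 15 other libraries, a pattern whose share over all genes was not computed. The log2 fold change was −0.01 ± 0.08 in KO livers and 0.68 ± 0.08 in hPPARa livers, a difference of −0.70 ± 0.11; without the 3 KO libraries the KO value was −0.088 and the difference −0.77. The SD of log2 CPM within groups was 0.07 for Acsf3, and 0.65 for Serinc2, 0.45 for Chrna2, 0.40 for Bhlhb9 and 0.26 for Nrp2.

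Across all genes tested, edgeR's quasi-likelihood test (threshold 0.05 after Benjamini-Hochberg adjustment) called 7.41% higher and 6.36% lower with PFOA among 15334 genes in KO livers, where 0 of the 5 were called. In hPPARa livers it called 12.8% higher and 9.76% lower among 14400 genes, and all 5 were among those higher. The difference between responses was called higher in KO livers for 0.443% and lower for 0.727% of 15811 genes, and all 5 were among those lower. The genes were chosen on these contrasts, so nothing is read from these counts. The median log2 fold change of the 5 was −0.39 in KO livers, 2.83 in hPPARa livers and −3.26 for the difference, and over all genes tested these medians were −0.02, −0.01 and −0.00. By size, the difference of Serinc2 was the 19th lowest of the 15811, those of Bhlhb9 and Chrna2 the 104th and 105th, that of Nrp2 the 353rd and that of Acsf3 the 1260th.

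Averaged over exposure and sex, the level in KO livers relative to hPPARa livers was lower, with log2 differences of −1.58 ± 0.21 for Chrna2, −1.59 ± 0.22 for Bhlhb9, −1.05 ± 0.42 for Serinc2, −0.30 ± 0.12 for Nrp2 and −0.19 ± 0.05 for Acsf3. The hPPARa PFOA libraries, high by choice, enter this average, so it is a description too; 3 of the 5 (Chrna2, Bhlhb9 and Acsf3) were called, against 16.9% of all genes in either direction. Without KO female vehicle replicate 1 the Serinc2 value was −1.90. The vehicle libraries alone had mean Chrna2 levels of 4.84 ± 3.07 CPM in KO livers and 2.16 ± 1.03 CPM in hPPARa livers (SD, n = 4 and 5). These means mix the sexes in unequal numbers, and the sexes ran opposite ways: males averaged 6.31 CPM in KO livers and 3.13 CPM in hPPARa livers, and females 0.413 CPM in the single KO library and 1.51 CPM in hPPARa livers. For Acsf3 the same means were 32.3 ± 1.41 CPM and 29.9 ± 1.83 CPM. Those of Serinc2 were 2.53 ± 2.92 CPM and 0.593 ± 0.193 CPM, with 6.82 CPM in KO female vehicle replicate 1. Those of Nrp2 were 17.9 ± 8.28 CPM and 15.3 ± 5.95 CPM, and those of Bhlhb9 0.885 ± 0.358 CPM and 1.08 ± 0.707 CPM. With vehicle alone, Bhlhb9 was thus the only gene of the 5 with a lower mean in KO livers.

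Male against female was a comparison that the choice of the genes did not use, with exposure as a term in the fit; its estimates correlated with the PFOA estimates by 0.25 in the KO design and by −0.20 in the hPPARa design, because of the unequal group sizes. Chrna2 was higher in males and Nrp2 lower in males of KO mice, and Nrp2 and Bhlhb9 were lower in males of hPPARa mice. In all, 2 of 5 were called in KO livers, against 3.41% of all genes, and 2 of 5 in hPPARa livers, against 3.48%. All p-values of these comparisons are from edgeR's quasi-likelihood test, adjusted over all genes tested.

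The sex difference of Chrna2 in KO livers was 2.77 ± 0.35 on the log2 scale (adjusted p = 0.00158). All 6 KO male libraries, at 3.05 to 7.23 CPM, were above all 4 KO female libraries, at 0.337 to 1.21 CPM. How many of all genes separated the sexes in this way was not computed. The call held without any single library and without the 3 libraries with transcripts of the other sex, where the difference was 2.99 (adjusted p = 0.00496). In hPPARa livers the difference was 0.63 ± 0.20 (adjusted p = 0.112), with overlapping PFOA groups and separate vehicle groups; DESeq2 gave 0.64 (adjusted p = 0.0469). The difference between these sex differences, a comparison added after the data were seen, was 2.13 ± 0.41 for Chrna2 (adjusted p = 0.267). No gene of 15811 (0%) was called in that comparison, with 972 genes at an unadjusted p under 0.05. DESeq2 called 15 genes, among them Chrna2 (adjusted p = 0.000681), and leaving out KO female PFOA replicate 2 also put Chrna2 past the threshold in edgeR (2.59, adjusted p = 0.0339).

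Nrp2 was lower in males by the same size in both genotypes. The log2 difference was −0.80 ± 0.16 in KO livers (adjusted p = 0.0168) and −0.81 ± 0.16 in hPPARa livers (adjusted p = 0.0148), and the difference between them was 0.01 ± 0.24 (adjusted p = 0.998). The KO call was lost without KO female vehicle replicate 1 (−0.61, adjusted p = 0.182) and without the 3 libraries with transcripts of the other sex (−0.62, adjusted p = 0.412), and leaving out hPPARa male vehicle replicate 1 ended the hPPARa call (−0.79, adjusted p = 0.0621). Every alternative kept the direction in both genotypes. Of 7 markers of Kupffer cells and other macrophages, none was called between the sexes in KO livers (median −0.33), with sums of 74.2 to 210 CPM in male libraries and 160 to 242 CPM in female libraries. In hPPARa livers 6 of the 7 were called lower in males (median −0.96), with sums of 66.7 to 124 CPM in male libraries and 157 to 221 CPM in female libraries, which did not overlap. Their part in the sex differences of Nrp2 and Bhlhb9 was not tested.

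Bhlhb9 was lower in hPPARa males by −1.12 ± 0.26 (adjusted p = 0.0312), and had −0.24 ± 0.36 in KO livers (adjusted p = 0.767), with the difference between genotypes at 0.92 ± 0.44 (adjusted p = 0.809). The hPPARa call was lost without any of 5 libraries, male vehicle replicates 1 and 2, female vehicle replicate 2, male PFOA replicate 2 and female PFOA replicate 2 (adjusted p = 0.0504 to 0.0745), with values of −0.92 to −1.30. Bhlhb9 lies on the X chromosome. Serinc2 had −0.92 ± 0.70 in KO livers (adjusted p = 0.512), which turned to 0.87 without KO female vehicle replicate 1, and 0.35 ± 0.31 in hPPARa livers (adjusted p = 0.643). Acsf3 had −0.16 ± 0.08 (adjusted p = 0.296) in KO livers and 0.01 ± 0.08 (adjusted p = 0.976) in hPPARa livers.

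**Figure D2:**
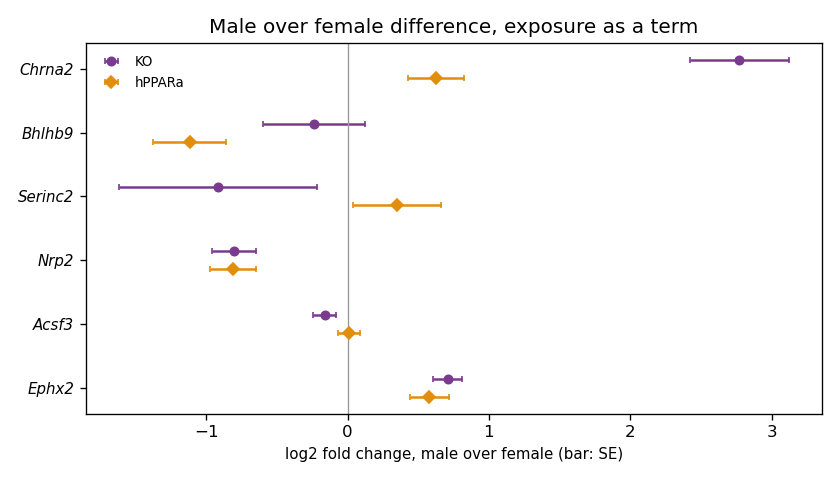
Log2 fold change of male over female libraries with exposure as a term, for the 5 genes and Ephx2, the neighbour of Chrna2; circles are KO livers, diamonds hPPARa livers, and bars the SE. Chrna2 in KO livers, at 2.77, stands farthest from 0, and Nrp2 lies at −0.80 and −0.81.

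Whether PFOA acted differently in hPPARa males and females was tested with a term that is uncorrelated with the response averaged over the sexes. None of the 5 passed, against 0.104% of all genes (15 genes, with 1477 at an unadjusted p under 0.05; DESeq2 called 138). The male response minus the female one was 1.504 ± 0.47 for Bhlhb9 (adjusted p = 0.310), 1.35 ± 0.65 for Serinc2 (adjusted p = 0.498), 0.58 ± 0.28 for Nrp2 (adjusted p = 0.500), −0.19 ± 0.16 for Acsf3 (adjusted p = 0.701) and −0.69 ± 0.38 for Chrna2 (adjusted p = 0.547).

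Relatives of the 5 genes, taken from lists of their families and pathways, were followed next. Of 16 nicotinic receptor subunits, 3 besides Chrna2 were tested for PFOA in either genotype. In KO livers 0 were called higher and 1 lower, with a median of −0.21, and in hPPARa livers none was called, with a median of −0.03. Chrnb1, the beta 1 subunit of muscle receptors, fell by 1.35 ± 0.36 on the log2 scale in KO livers (adjusted p = 0.0242), a call lost without the 3 libraries with transcripts of the other sex (−0.63, adjusted p = 0.466), without KO female vehicle replicate 1 (−0.98, adjusted p = 0.177), without KO male PFOA replicate 2 (0.0581) and without KO male vehicle replicate 3 (0.0530). In hPPARa livers Chrnb1 had −0.03 ± 0.47 (adjusted p = 0.973). Chrna4, the alpha 4 subunit, had 1.07 ± 1.10 in KO livers (adjusted p = 0.570) and 1.02 ± 0.35 in hPPARa livers (adjusted p = 0.0552). Among 12 genes listed under acetylcholine handling, 1 of 8 tested was lower in KO livers, Ache, the acetylcholinesterase (−1.86 ± 0.49, adjusted p = 0.0230). In hPPARa livers 1 of 7 was lower, Ly6e (−1.18 ± 0.13, adjusted p = 2.69e-05). Ly6e is a small surface protein related to the receptor modulators of the Ly6 family. The Ache call was lost without the 3 libraries with transcripts of the other sex (−1.10, adjusted p = 0.299). Ache was tested in 15 of 16 alternatives in KO livers. In hPPARa livers Ache had −0.77 ± 0.39 (adjusted p = 0.168). Summed nerve and glia markers were 31.0 to 47.8 CPM in KO PFOA libraries, against 18.96 to 25.7 CPM in KO vehicle libraries, and 18.5 to 38.5 CPM in hPPARa PFOA libraries, against 17.1 to 24.5 CPM in hPPARa vehicle libraries. The part of these cells was not tested. Sox10, a defining glial gene, was at 0 in all KO PFOA and all hPPARa vehicle libraries, and 1 of 3 tested markers was called higher in each genotype.

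In the family of Bhlhb9, 8 other Gprasp and Armcx genes were tested in KO livers and 7 in hPPARa livers. Gprasp2 alone was called in KO livers, where it was lower (−2.37 ± 0.63, adjusted p = 0.0243). That call was lost without KO male PFOA replicate 2 (adjusted p = 0.0581), and Gprasp2 was tested in only 14 of 16 alternatives. None of the 7 was called in hPPARa livers. The medians of these relatives were −0.09 in KO livers and 0.20 in hPPARa livers. Armcx5, for example, had 0.28 ± 0.19 in KO livers (adjusted p = 0.378) and 0.38 ± 0.17 in hPPARa livers (adjusted p = 0.116).

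Serinc5, another serine incorporator, rose in both genotypes, by 0.57 ± 0.09 in KO livers (adjusted p = 0.00160; 0.0728 without the 3 libraries with transcripts of the other sex) and 0.49 ± 0.10 in hPPARa livers (adjusted p = 0.00450), with a difference of 0.07 ± 0.14 (adjusted p = 0.866). Serinc1 had 0.14 ± 0.09 and −0.05 ± 0.11 in KO and hPPARa livers (adjusted p = 0.330 and 0.774), and Serinc3 had −0.05 ± 0.10 and 0.02 ± 0.10 (adjusted p = 0.783 and 0.923). Of the 12 genes tested besides Serinc2 in the list of serine incorporators and serine lipid enzymes, 1 was higher and 1 lower in KO livers, and 3 higher and 1 lower in hPPARa livers, with medians of 0.01 and 0.20. Ptdss2, which makes phosphatidylserine, was among those higher in hPPARa livers (0.37 ± 0.10, adjusted p = 0.0170), which missed the threshold if hPPARa male vehicle replicate 2 (0.0502) or female PFOA replicate 1 (0.0789) was left out. Sptlc2, a subunit of the enzyme that opens sphingolipid synthesis from serine, was the other (0.35 ± 0.11, adjusted p = 0.0334), and was lost without any of 6 of the 10 hPPARa libraries: female vehicle replicate 1, male vehicle replicates 1 and 2, both female PFOA libraries and male PFOA replicate 3 (0.0507 to 0.0853). Shmt1, which splits serine to glycine, was the lower one in both genotypes, with −0.77 ± 0.15 in KO livers (adjusted p = 0.00510; 0.0520 without the 3 libraries with transcripts of the other sex) and −0.63 ± 0.14 in hPPARa livers (adjusted p = 0.00679).

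Nrp1, the other neuropilin, was called in opposite directions in the 2 genotypes. Nrp1 fell by 0.67 ± 0.20 in KO livers (adjusted p = 0.0452) and rose by 0.62 ± 0.13 in hPPARa livers (adjusted p = 0.00401), and the responses differed by −1.30 ± 0.25 (adjusted p = 0.0149). The KO call was lost without KO female vehicle replicate 1, any 1 of the 3 KO female PFOA libraries, KO male vehicle replicate 2 or KO male PFOA replicate 2 or 3 (adjusted p = 0.0534 to 0.148), without the 3 libraries with transcripts of the other sex (−0.56, adjusted p = 0.365) and with equal weight for the sexes (0.0748). The difference was lost without KO female vehicle replicate 1 (−1.29, adjusted p = 0.0548) and without the 3 libraries with transcripts of the other sex (−1.19, adjusted p = 0.175). Nrp1 showed no called sex difference, with 0.56 ± 0.20 in KO livers (adjusted p = 0.160) and 0.14 ± 0.13 in hPPARa livers (adjusted p = 0.665). Kdr, a receptor for vascular endothelial growth factor and an endothelial marker, rose by 0.41 ± 0.10 in hPPARa livers (adjusted p = 0.00885) and had −0.04 ± 0.19 in KO livers (adjusted p = 0.906). Among the neuropilins, plexins, semaphorins and growth factors other than Nrp2, 0 of 19 were higher and 1 lower in KO livers, and 2 of 18 were higher and 1 lower in hPPARa livers, with medians of −0.31 and 0.08. The lower one in hPPARa livers was Vegfa, a vascular endothelial growth factor (−0.61 ± 0.18, adjusted p = 0.0300), a call lost without hPPARa female vehicle replicate 2 (0.0523) or either female PFOA library (0.128 and 0.122).

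**Figure D3:**
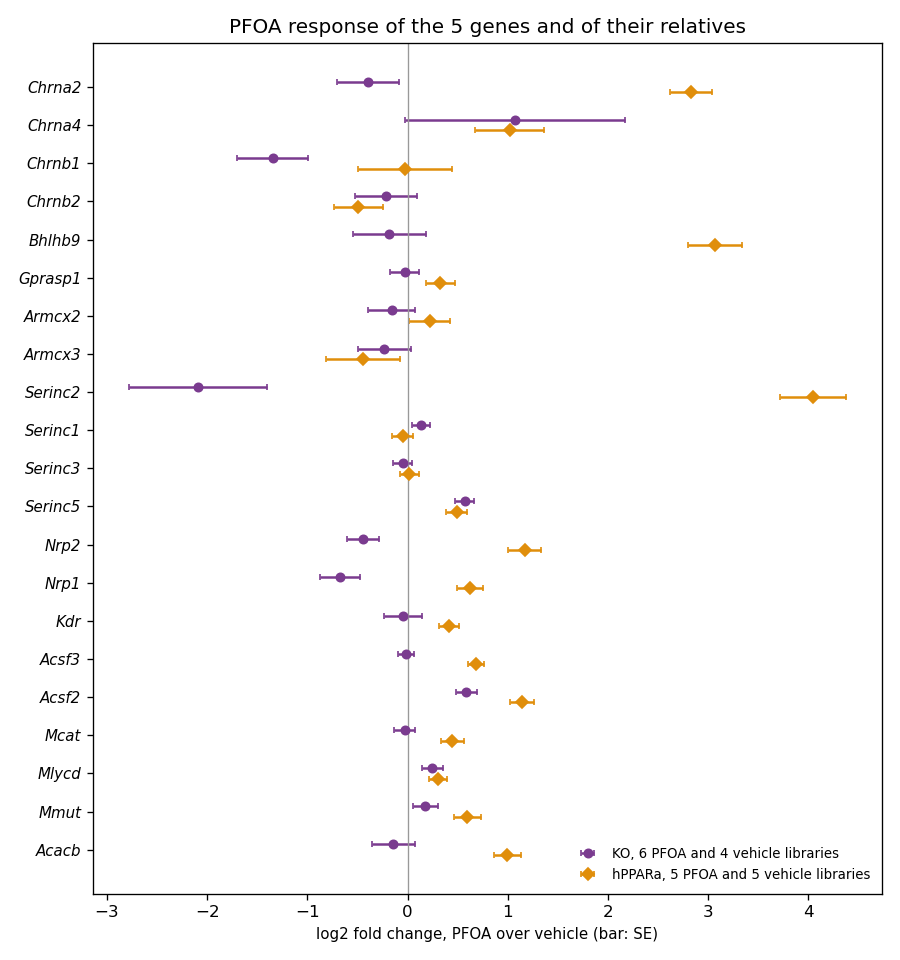
Log2 fold change with PFOA over vehicle for the 5 genes and relatives from their families or pathways; circles are KO livers, diamonds hPPARa livers, and bars the SE. Nrp1 lies below 0 in KO livers (−0.67) and above it in hPPARa livers (0.62), as Nrp2 does, while Serinc5 lies at 0.57 and 0.49.

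Genes around Acsf3 in malonate, methylmalonate and mitochondrial fatty acid metabolism were higher in hPPARa livers in 5 of 18 cases besides Acsf3 and lower in none, with a median of 0.18, and in 2 of 18 cases in KO livers, with a median of −0.02. Acacb, the acetyl-CoA carboxylase at the outer mitochondrial membrane, rose by 0.996 ± 0.13 in hPPARa livers (adjusted p = 0.000151) and had −0.14 ± 0.21 in KO livers (adjusted p = 0.708), a difference of −1.14 ± 0.26 (adjusted p = 0.0402) that was no longer called in 17 of 26 alternatives (highest adjusted p = 0.409). Mmut, the methylmalonyl-CoA mutase, rose by 0.59 ± 0.13 in hPPARa livers (adjusted p = 0.00683) and had 0.18 ± 0.12 in KO livers (adjusted p = 0.359). Mcat, which hands malonyl groups to the mitochondrial acyl carrier protein, rose by 0.45 ± 0.11 in hPPARa livers (adjusted p = 0.0127; 0.0501 without hPPARa female PFOA replicate 1) and had −0.03 ± 0.11 in KO livers (adjusted p = 0.894). Mlycd, the malonyl-CoA decarboxylase, rose by 0.30 ± 0.09 in hPPARa livers (adjusted p = 0.0245), which missed the threshold if hPPARa male vehicle replicate 2 (0.0857) or either female PFOA library (0.0810 and 0.0632) was left out, and had 0.25 ± 0.11 in KO livers (adjusted p = 0.138). Oxsm, the condensing enzyme of mitochondrial fatty acid synthesis, rose in both genotypes, by 0.36 ± 0.09 in KO livers (adjusted p = 0.0239) and 0.36 ± 0.09 in hPPARa livers (adjusted p = 0.0118; 0.0616 without hPPARa female PFOA replicate 1). The KO call was lost without KO female vehicle replicate 1, KO male vehicle replicate 1 or 2 or KO male PFOA replicate 2 (0.0531 to 0.119), and without the 3 libraries with transcripts of the other sex (0.29, adjusted p = 0.295). The other gene called in KO livers was Mmab, which prepares the cobalamin cofactor of Mmut (0.42 ± 0.12, adjusted p = 0.0386), a call lost in 9 alternatives, 7 of them without 1 library each (0.0564 to 0.203) and 1 without the 3 libraries with transcripts of the other sex (0.307).

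Acsf2, the synthetase of the same family, rose in both genotypes, by 0.59 ± 0.11 in KO livers (adjusted p = 0.00319; 0.0744 without the 3 libraries with transcripts of the other sex) and 1.14 ± 0.12 in hPPARa livers (adjusted p = 2.31e-05), with a difference of −0.56 ± 0.16 (adjusted p = 0.0970). Other acyl-CoA synthetases were higher in 3 of 16 cases in KO livers and in 9 of 15 in hPPARa livers, and lower in none, with medians of 0.23 and 0.53. For scale, the 25 classical PPARa targets were higher in 19 cases in KO livers, with a median of 0.69, and in 23 in hPPARa livers, with a median of 1.23, and 11 of them had a lower response in KO livers. Ehhadh, a peroxisomal enzyme of fatty acid oxidation among them, had 337 to 666 CPM with PFOA in KO livers, against 136 to 183 CPM with vehicle, and 2725 to 4136 CPM with PFOA in hPPARa livers, against 163 to 278 CPM with vehicle. Its response was 1.44 ± 0.20 in KO livers (adjusted p = 0.000827) and 3.96 ± 0.13 in hPPARa livers (adjusted p = 1.09e-09). Ehhadh thus rose in both genotypes. The 5 genes were chosen for a smaller response in KO livers, so nothing is read from setting them against Ehhadh.

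The 5 genes lie on chromosomes 14, X, 4, 1 and 8 and are not neighbours of each other. The genes next to them, in the order of RefSeq on GRCm38.p6, were looked at after the lists had been fixed. Chrna2 lies between Ephx2, the soluble epoxide hydrolase of fatty acid epoxides, and Ptk2b. In KO males Ephx2 had 535, 522 and 573 CPM with PFOA, against 566, 545 and 553 CPM with vehicle. In KO females it had 343, 405 and 342 CPM with PFOA, against 282 CPM with vehicle. The male libraries were all above the female ones, and the male exposure groups overlapped. In hPPARa males Ephx2 had 1359, 1258 and 1396 CPM with PFOA, against 793 and 669.8 CPM with vehicle. In hPPARa females it had 1215 and 1109 CPM with PFOA, against 348, 405 and 387 CPM with vehicle. The hPPARa exposure groups did not overlap, and males were above females in each.

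Ephx2 rose by 1.24 ± 0.14 with PFOA in hPPARa livers (adjusted p = 3.79e-05) and had 0.10 ± 0.10 in KO livers (adjusted p = 0.581), a difference of −1.14 ± 0.18 (adjusted p = 0.00336). It was higher in males by 0.71 ± 0.11 in KO livers (adjusted p = 0.00379; 0.0610 without the 3 libraries with transcripts of the other sex) and by 0.58 ± 0.14 in hPPARa livers (adjusted p = 0.0337), the second of these lost without any hPPARa library but male PFOA replicates 1 and 2 and female PFOA replicate 1 (0.0506 to 0.124). Ptk2b, the tyrosine kinase gene on the other side of Chrna2, had 0.17 ± 0.08 in KO livers (adjusted p = 0.182) and 0.11 ± 0.10 in hPPARa livers (adjusted p = 0.478).

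**Figure D4:**
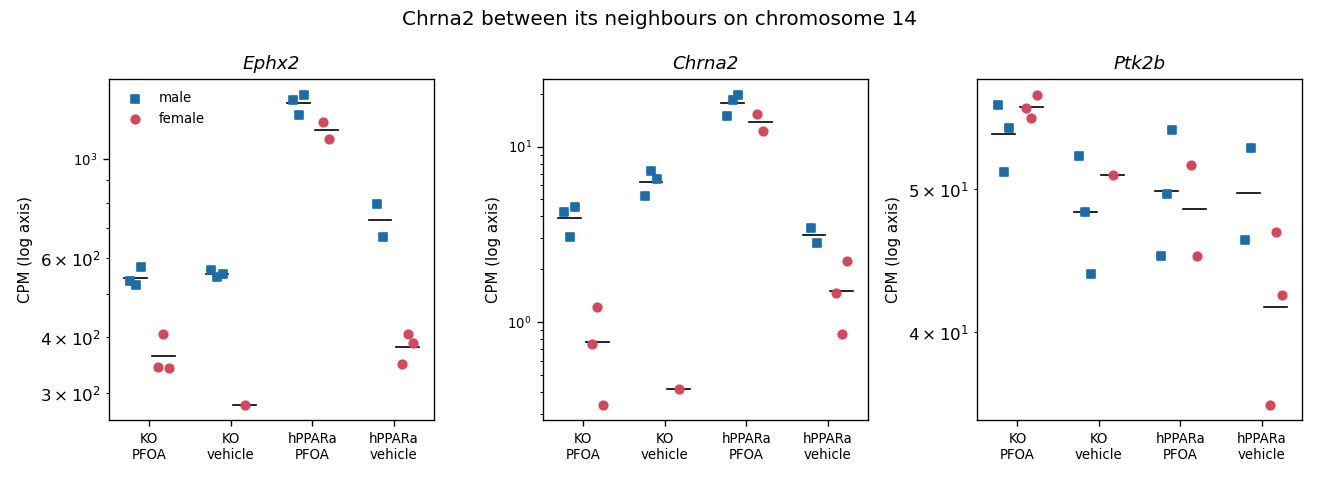
Level in CPM (log axis, 1 scale per gene) of Ephx2, Chrna2 and Ptk2b, neighbours on chromosome 14, in the 20 libraries; squares are male libraries, circles female libraries and bars the mean of a sex within a group. Ephx2 is highest in hPPARa PFOA libraries (1109 to 1396 CPM), as Chrna2 is (12.2 to 19.8 CPM), while Ptk2b lies between 35.7 and 57.9 CPM in all libraries.

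Neighbours of the other genes were tested likewise. Cdh15, next to Acsf3, rose in both genotypes, by 2.15 ± 0.50 in KO livers (adjusted p = 0.0123; 0.0528 with equal weight for the sexes) and 2.28 ± 0.48 in hPPARa livers (adjusted p = 0.00405), with at most 1.99 CPM in any library. Cbfa2t3 on the other side of Acsf3 had −0.49 ± 0.17 in KO livers (adjusted p = 0.0729) and 0.31 ± 0.28 in hPPARa livers (adjusted p = 0.450). Beside Nrp2, Pard3b had 0.17 ± 0.19 and 0.18 ± 0.17 (adjusted p = 0.603 and 0.483), and Ino80d had 0.32 ± 0.10 in KO livers (adjusted p = 0.0459, lost in 13 alternatives with 0.0522 to 0.209) and −0.20 ± 0.11 in hPPARa livers (adjusted p = 0.215). The neighbours of Serinc2, Ldc1 and Fabp3, and Arxes2 beside Bhlhb9 were at or near 0 counts.

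The genes whose pattern over the 20 libraries was most like each of the 5 were found by the root mean square difference of centred log2 CPM among 13509 genes; this likeness includes the PFOA response that chose the 5 and is a description. For Chrna2 they were Smad9 (0.856), Ephx2 (1.03) and C1qtnf3 (1.08), where Chrna2 itself varied by 1.65 about its mean. For Bhlhb9 they were Rad51b (0.632), Pltp (0.682) and Nol3 (0.718), with 1.41 for Bhlhb9. For Serinc2 they were Gal3st1 (0.807), Sdcbp2 (0.937) and Fbp2 (0.944), with 1.83 for Serinc2. Nrp2, which varied by 0.623, was followed most closely by Zc2hc1a (0.308), Arap2 (0.320) and Pkp3 (0.338), and Acsf3, which varied by 0.280, by the mitochondrial proteins Trap1 (0.113), Spg7 (0.123) and Clpb (0.131). Ephx2 was thus both the neighbour of Chrna2 and the second closest in pattern of 13509 genes. Trap1 had mean levels of 170 CPM with PFOA and 155 CPM with vehicle in KO livers, and 235 CPM with PFOA and 151 CPM with vehicle in hPPARa livers. Gal3st1, which adds sulfate to glycolipids, had 0.302 CPM with PFOA and 0.396 CPM with vehicle in KO livers, and 6.68 CPM with PFOA and 0.293 CPM with vehicle in hPPARa livers.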

How the data were processed

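RNA of bulk liver was measured in 20 libraries, grouped by genotype, sex and exposure as titled. Per the labels' protocols, RNA was extracted with a Direct-zol kit, samples with an RNA integrity number over 7 were used, and BGI Americas made and sequenced the libraries. The authors deposited whole-number counts per gene in a table per genotype, not normalized. Build GRCm39, STAR 2.5.3, featureCounts 1.6.1, cutadapt 1.15, edgeR 3.36.0 under R 4.1.0 and FastQC 0.11.5 appear in the submitters' processing notes; their roles, the annotation and the strand setting are not stated there. RefSeq and GENCODE M21 of GRCm38 gave sequences, gene order and exon overlaps only.

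The members and lists were chosen with earlier results of these data known. The counts were tested with edgeR 4.0.16 (R 4.3.3): TMM factors, edgeR's own low-count filter (filterByExpr), robust quasi-likelihood tests, Benjamini-Hochberg adjustment over all genes tested and a threshold of 0.05. The SE is the log2 fold change over the square root of F. Exposure and sex effects were fitted within a genotype with both terms, PFOA by sex on group means, and differences between genotypes in 1 model of all libraries. The genotype average was planned as a test and is given as a description. CPM values used joint TMM factors, and patterns log2 CPM with a prior count of 2. No 2 replicates agreed within counting noise, and 0 sample columns were left out. Named were the 5 genes, up to 4 tested genes of each list by smallest p, close relatives, the 3 most alike genes per member, Ppara, Xist, Ddx3y and Ehhadh, of which some are not printed. Chrna4 and Armcx5 are relatives; the gene neighbours, and Ache, Ly6e, Shmt1, Sptlc2, Vegfa, Oxsm and Mmab behind small counts, were added after values were seen. Alternatives were RLE factors, no filter, DESeq2 1.42.0, a replicate block, equal weight for the sexes and omitted libraries. The tests were also run on counts simulated from the fitted means and dispersions, which cannot show that the model fits these data.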

Additional observations from a re-analysis of the deposited data

Results flagged for a closer look

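Outside the 5 genes, which were chosen by this difference, 4 named genes were called for a difference in PFOA response (edgeR, KO minus hPPARa). Over all 15811 genes tested, 0.443% were called higher and 0.727% lower in KO livers. Some genes were named for a small p in this contrast or for PFOA in hPPARa livers. Ephx2 was named after values were seen. Nothing is therefore read from the number of named genes called. The difference was −2.52 ± 0.23 for Ehhadh (adjusted p = 2.11e-06), the peroxisomal oxidation enzyme, and −1.14 ± 0.18 for Ephx2 (adjusted p = 0.00336), the neighbour of Chrna2. These kept their direction and side of the threshold in all 26 alternatives, with −2.73 to −2.21 for Ehhadh and −1.27 to −1.04 for Ephx2.

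Nrp1, the other neuropilin, had a difference of −1.30 ± 0.25 (adjusted p = 0.0149), lost without KO female vehicle replicate 1 and without the 3 KO libraries that carried other-sex transcripts. Acacb, a carboxylase that makes malonyl-CoA, had −1.14 ± 0.26 (adjusted p = 0.0402), lost in 17 of 26 alternatives.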

How the results depend on the processing

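Of 1562 values of the 5 and other named genes under alternatives, 1394 kept their direction and side of the threshold or, where untested, moved by less than the spread of replicates; of 151 counts, 110 stayed within 1.5 times.

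The number of genes with a different PFOA response by genotype (185) was 545 without the filter on low counts, 420 with DESeq2 and 310 with equal weight for the sexes. For male against female these counts were 1322 without the filter and 930 with DESeq2 in KO livers (523 as reported), and 1088 and 927 in hPPARa livers (501 as reported). PFOA by sex in hPPARa livers (15) gave 323 and 138, and male against female by genotype (0) gave 82 and 15. Without the 3 KO libraries that carried other-sex transcripts, the counts were 630 for PFOA in KO (2113 as reported), 39 for PFOA by genotype, 94 for male against female in KO, 1782 for the genotype average (2675 as reported) and 2 for male against female by genotype. Serinc2 and Bhlhb9 then turned positive for male against female in KO (1.21 and 0.11), as did Serinc2 for that difference by genotype (0.90).

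With 1 library left out, PFOA in hPPARa (3253 as reported) gave 1905 to 3889 calls, lowest without female PFOA replicate 1 and 2070 without replicate 2. PFOA in KO gave 1401 (without male PFOA replicate 2) to 2129, with 1407 without KO female vehicle replicate 1. PFOA by genotype gave 67 to 239, with 67 and 85 without hPPARa female PFOA replicates 1 and 2, 81 without KO female vehicle replicate 1 and 90 without KO male PFOA replicate 2. Male against female gave 127 to 609 in KO livers, lowest without KO female vehicle replicate 1 and 334 without male vehicle replicate 1. In hPPARa livers it gave 255 to 686, with 255 and 306 without female PFOA replicates 2 and 1, 282 without male vehicle replicate 1 and 315 without male PFOA replicate 2. PFOA by sex gave 4 to 27 and male against female by genotype 0 to 1. The direction of 5 uncalled differences between the sexes changed: Acsf3 in hPPARa livers (−0.029 to 0.043), Bhlhb9 and Serinc2 in KO livers (−0.48 to 0.083 and −1.25 to 0.87), and Nrp2 and Serinc2 by genotype (−0.12 to 0.20 and −1.67 to 0.55). The cause was not tested.

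With a replicate block, male against female in KO gave 206 calls, and calls were lost for Nrp2 there (−0.78, adjusted p = 0.0582), for Chrnb1 (−1.28, 0.0611), Gprasp2 (−2.20, 0.0572), Nrp1 (0.0679), Ache (0.0598), Oxsm (0.0534), Mmab (0.0784) and Ino80d (0.0943) with PFOA in KO, for Sptlc2 (0.0501) and Vegfa (0.0584) with PFOA in hPPARa, for Ephx2 between the sexes in hPPARa (0.58, 0.0566) and for Acacb by genotype (0.0700); no other printed call of a single gene was lost. The numbers share no stated source, their 22 pairs correlated by −0.128 to 0.106, and 5 of 19 libraries correlated best with their own number. Depth limits Bhlhb9 and Serinc2 most, with 3 and 2 counts in their lowest libraries.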
